A study of Mus musculus with 15 samples.

Results

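Untreated O4AID embryonic stem cells (ESCs) were compared with untreated Oct4 Fl/- CreER ESCs, the mouse lines in which the study later removes OCT4 as a protein or as a gene. The comparison used the 3 libraries labelled untreated at 0 h, of 15 in the series: 1 O4AID library and CreER replicates 1 and 2. Genes on the 19 autosomes were described, 44489 of the 48709 in the count files. The question was how far the lines already differed before 4-hydroxytamoxifen (4-OHT) or indole-3-acetic acid (IAA) was added, since each time course starts from its own line.

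The CreER cells had a mixed 129SV and C57BL/6 strain, 1 floxed and 1 null Oct4 allele, and the CreER recombinase driven by the CAG promoter. The O4AID cells had strain 129SV and the genotype Oct4-/-, so that all of their OCT4 came from transgenes. These were a TetOFF Oct4 transgene, Oct4AID, which encodes OCT4 fused to an auxin-inducible degron, and Tir1, the plant F-box protein that recognises the degron in the presence of auxin. Both Oct4AID and Tir1 were driven by CAG, and doxycycline kept the TetOFF transgene silent, while no doxycycline was listed for CreER. The O4AID cells were made by transfecting 1 existing ESC line, ZHBTc4 (ZHBT in the labels). Per the labels, both lines grew without feeder cells, on gelatin, in N2B27 with the MEK inhibitor PD03, the GSK3 inhibitor Chiron and leukaemia inhibitory factor (LIF), together called 2i/LIF. The study's methods also name a medium of serum and LIF, used where stated, which the labels of these libraries do not mention. Line, strain, source of OCT4, transgenes and doxycycline went together and cannot be told apart here.

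In 2i/LIF, mouse ESCs are held in the naive state, which resembles the epiblast of the blastocyst. MEK inhibition blocks the FGF-ERK signal by which naive cells leave that state, GSK3 inhibition stabilises β-catenin and switches on Wnt target genes, and LIF acts through STAT3. Cells that leave the naive state pass through a formative stage, in which naive factors go down while Otx2, Fgf5 and the de novo DNA methyltransferases go up, and OCT4, encoded by Pou5f1, is needed throughout and also keeps trophectoderm genes off.

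The O4AID library held 48719670 counted reads, and CreER replicates 1 and 2 held 24479121 and 29188893. A read was found for 25577 genes in O4AID and for 26801 and 27747 genes in CreER. Mitochondrial genes took 7.32% of counts in O4AID and 8.54% and 9.32% in CreER. Over 13479 autosomal genes with a mean of at least 50 counts, the SD of the log2 difference between the CreER replicates was 0.166 and that between O4AID and the CreER mean was 1.76. A difference over 2-fold was found for 4 of these genes between the replicates and for 5134 between the lines. The CreER replicates differed by more than sampling noise (chi-square of 5.81 per degree of freedom) and were kept as 2 samples. The O4AID state had no replicate, so each p below assumes that the lone O4AID library varied like the CreER replicates, and an exact permutation test of 1 library against 2 cannot give a p under 0.333. In bulk samples, fewer cells with a transcript and less of it per cell cannot be told apart.

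Pou5f1, the gene behind the study's design (chr17:35506018-35510772, GRCm38), was measured first. It was at 767 CPM (counts per 1000000, with library sizes scaled by the trimmed mean of M-values, TMM) in O4AID and at 327 and 321.4 CPM in CreER replicates 1 and 2. The O4AID level lay above both CreER levels, with a log2 difference of 1.24 ± 0.049 (SE; edgeR quasi-likelihood test, Benjamini-Hochberg adjusted p = 1.2e-19). Reads of the transgenes that share Pou5f1 exons count towards this gene, so in O4AID the value includes Oct4AID. With the reads of its 1 processed copy added, the difference was 1.18, in a fit that also rescaled the libraries. Esrrb, which has no matched copy, went from 1.62 to 1.56 in that fit. Neither line had lost OCT4 at this point, so Pou5f1 does not check the labels as it would after a deletion.

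A gene was called when its adjusted p was under 0.05 and it differed by at least 2-fold. Of 19520 autosomal genes tested, 8948 were called, which is 45.8% of them. O4AID was higher for 3844 genes, 19.7% of those tested, and lower for 5104, 26.1% of those tested. The median log2 difference over all tested genes was -0.053. With scaling by total counts in place of TMM it was -0.241, and the calls became 3251 higher and 5728 lower, so the split between directions depends on the scaling. NOISeq-sim, the kind of test the study used, called 3957 genes, and did not call 11 of the Hox genes below, nor Gata6, Dlk1, Col3a1, Rpl24, Duxf3 and Il10, all of low counts. The shares of edgeR calls over all autosomal genes tested are the background against which each gene list below is read. Over the protein-coding genes alone, 21.8% were higher and 18.4% lower. The lists are described by counts and medians only.

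**Figure D1:**
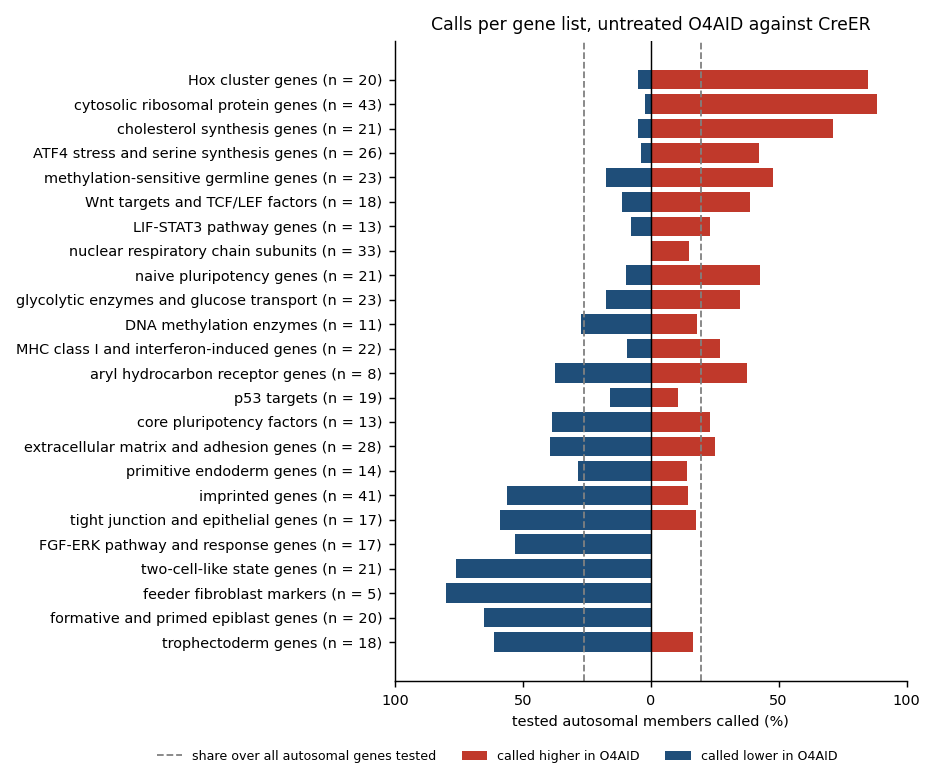
Share of each gene list's tested autosomal members that was called higher (right) or lower (left) in untreated O4AID than in untreated CreER, in percent of the n members beside each name, with lists ordered by their median log2 difference. Dashed lines mark the shares over all autosomal genes tested, 19.7% higher and 26.1% lower, and 17 of 20 Hox cluster genes against 0 of 20 formative and primed genes were higher in O4AID.

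Processed pseudogenes stood apart, and they bear on the level of many housekeeping genes. They are intronless copies of spliced messages set back into the genome, and a short read from a spliced gene can match its copy almost as well as the gene itself. Of 1598 processed pseudogenes tested, 1217 were lower and 102 higher in O4AID, with a median log2 difference of -4.04. They took 1.52% of all counts in O4AID but 6.49% and 6.5% in the CreER replicates. Copies were matched to parents by sequence, and genes with at least 1 matched copy went the other way: 467 of 1549 were higher and 98 lower, with a median of 0.40. Protein-coding genes as a whole were split more evenly, with 3201 higher and 2710 lower of 14701.

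Sequences of a gene and its copy show how little separates them, and they are shown because a read of 1 locus of a pair can match the other. The coding sequence of Rps27, a protein of the small ribosomal subunit, is 255 bases long and lies in exons at chr3:90212522-90213651 on the minus strand. It has 0 mismatches to the intronless gene Rps27rt at chr9:114982371-114982740, also on the minus strand (GRCm38). The first 240 bases of both follow, from 5′ to 3′, with the 6 bases on either side of each exon join of Rps27 in capitals.
Rps27: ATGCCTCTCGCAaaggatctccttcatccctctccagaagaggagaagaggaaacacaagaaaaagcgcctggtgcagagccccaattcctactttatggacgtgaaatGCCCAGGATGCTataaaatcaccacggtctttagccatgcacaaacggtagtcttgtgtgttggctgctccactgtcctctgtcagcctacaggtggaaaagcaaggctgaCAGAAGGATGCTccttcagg
Rps27rt: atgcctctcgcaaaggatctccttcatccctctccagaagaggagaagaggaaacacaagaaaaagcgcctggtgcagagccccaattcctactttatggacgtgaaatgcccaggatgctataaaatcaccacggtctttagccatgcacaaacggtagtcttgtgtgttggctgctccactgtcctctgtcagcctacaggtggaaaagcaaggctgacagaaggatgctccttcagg
For Rpl19, a protein of the large subunit at chr11:98026710-98030492 on the plus strand, the coding sequence of 591 bases has 1 mismatch to the pseudogene Rpl19-ps11 at chr8:19492936-19493526, also on the plus strand. Its first 240 bases are printed the same way, and the single capital in the copy marks the mismatch.
Rpl19: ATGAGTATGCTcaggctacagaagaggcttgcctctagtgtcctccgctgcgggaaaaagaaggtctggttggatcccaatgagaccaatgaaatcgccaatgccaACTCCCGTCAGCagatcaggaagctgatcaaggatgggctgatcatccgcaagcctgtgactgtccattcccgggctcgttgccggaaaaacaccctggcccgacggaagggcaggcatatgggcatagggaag
Rpl19-ps11: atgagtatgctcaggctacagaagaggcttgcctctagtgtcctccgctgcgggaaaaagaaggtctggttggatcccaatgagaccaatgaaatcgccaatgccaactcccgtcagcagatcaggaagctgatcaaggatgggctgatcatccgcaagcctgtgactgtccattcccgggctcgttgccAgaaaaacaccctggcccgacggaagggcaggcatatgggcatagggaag
A read from a stretch without a mismatch matches both loci, unspliced at the copy and, where it crosses a join, spliced at the gene.

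Cytosolic ribosomal protein genes, which are among the most expressed genes of any dividing cell, were higher in O4AID for 38 of 43 tested and lower for 1, with a median log2 difference of 3.62. Rpl19 was at 1218 CPM in O4AID and at 14.7 and 13.5 CPM in CreER. Its 14 copies together held 2.62 CPM in O4AID and 481 and 480.2 CPM in CreER. Counted reads of gene and copies together came to 1221 against 496 and 494 CPM, and the log2 difference went from 6.43 to 1.24. Rps27, which was not on the list, was at 553 against 4.77 and 5.90 CPM, while Rps27rt alone was at 0.137 against 391 and 391 CPM. For this family the difference went from 6.68 to 0.42, below the 2-fold limit. Rps6, a kinase target in the small subunit, went from 4.71 to 1.14, with 538 CPM in its copies in O4AID and 836 and 807 CPM in CreER.

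When the counts of copies were added to the parent genes across the whole table, an alternative chosen after the data were seen, 3354 of 17960 genes were higher (18.7%) and 4082 lower (22.7%). Of the ribosomal protein genes, 24 of 43 were then higher and 1 lower, and their median log2 difference was 1.11. Among all parent genes called higher before, 251 of 467 were still higher and 0 were lower. The SD of the log2 difference over the 1549 parents went from 1.56 to 1.12. Rps23 of the small subunit was an exception: it was at 1344 against 18.1 and 22.6 CPM, its 14 copies held at most 1.94 CPM in any of the 3 libraries, and its difference with copies added was still 5.87. Rpl24 of the large subunit was the 1 member lower in O4AID, at 0.251 against 1.23 and 1.78 CPM, and its copies held 0.251 against 88.6 and 92.4 CPM. The metabolic gene Gapdh, with 267 matched copies, was at 1121 against 110 and 104 CPM and went from 3.39 to 1.36. Alignment by TopHat2 was run with default settings, per the study's methods, while the setting of featureCounts for reads with several matches is not given in the sources used here. Whether the lines differ in how such reads were assigned or left out was not tested. Sums with copies added hold only the reads that were counted, so they need not give the full level of a family. Below, the value with copies added is given for named genes whose call it changed or whose value it moved by over 1.5 times. For the Wnt target, germline and 2-cell lists, counts with copies added are given instead.

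**Figure D2:**
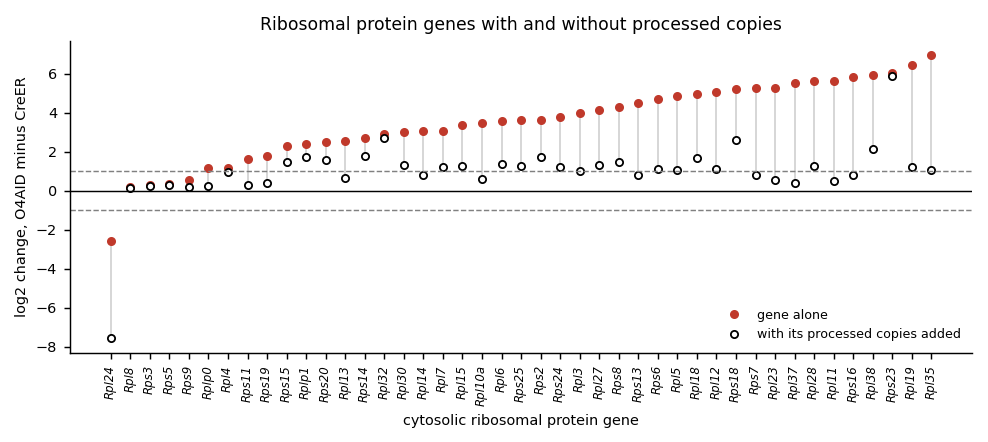
Log2 difference, O4AID minus CreER, of cytosolic ribosomal protein genes (one per position on the x axis), for the gene alone (filled) and with the counts of its processed copies added (open), with dashed lines at 2-fold. Most filled points lie far above the upper line and most open points near it, with Rps23 at 5.87 and Rpl24 at -7.57 after the copies were added.

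Naive pluripotency genes were mostly level or higher in O4AID. Of 21 tested, 9 were higher and 2 lower, with a median log2 difference of 0.39. This median was 1.25 over the 15 members left without processed copies and their parents, and 0.20 with total-count scaling. Tfcp2l1, a transcription factor that sustains self-renewal downstream of LIF (chr1:118627945-118685168), was at 1709 CPM in O4AID and at 209 and 215 CPM in CreER. That is a log2 difference of 3.01 ± 0.056 (SE; edgeR adjusted p = 4.3e-26). Tet2, an oxidase of methylated cytosine, was at 763 against 175 and 171 CPM (2.14 ± 0.047). Jam2, an adhesion protein of naive cells, was at 336 against 73.1 and 67.2 CPM, and the transcription factor Tbx3 at 194 against 60.0 and 56.7 CPM. Both of these exceeded CreER in O4AID by more than 2-fold, as did Klf4, Prdm14, Spic, Pecam1 and Dppa5a. The members that did not pass the limit included Zfp42 (Rex1), at 409 against 324 and 324 CPM, and Klf2, at 72.1 against 59.4 and 57.8 CPM. The members lower were Manba, a lysosomal mannosidase, at 23.6 against 243 and 256 CPM, and Fgfbp1, an FGF-binding protein, at 3.06 against 26.9 and 23.4 CPM. With copies added, Dppa2 and Dppa4 also passed 2-fold, at -1.36 and -1.22.

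Core pluripotency factors were divided. Nanog, which is central to the naive network (chr6:122707489-122714633), was at 1395 CPM in O4AID and at 573 and 567 CPM in CreER, a log2 difference of 1.29 ± 0.044. Esrrb, an orphan nuclear receptor that acts with it, was at 816 against 280.1 and 251 CPM (1.62 ± 0.054). Sox2, the DNA-binding partner of OCT4, was at 337 against 275 and 265 CPM and was not called. In the other direction, 5 of 13 tested members were lower. Lin28a, an RNA-binding protein that blocks maturation of let-7, was at 2.53 CPM in O4AID and at 580.2 and 622 CPM in CreER (-7.89 ± 0.098). Myc was represented by 1 read in O4AID and by 620 and 747 reads in CreER, a ratio of 1090 with a 95% counting interval of 195 to 43100. Utf1, a chromatin factor, was at 5.13 against 174 and 144 CPM, Mycn at 61.0 against 180 and 174 CPM, and Tdgf1, a Nodal co-receptor, at 224 against 651 and 729 CPM.

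Formative and primed epiblast genes were lower in O4AID for 13 of 20 tested and higher for 0, with a median log2 difference of -2.22. Dnmt3l, the cofactor of the de novo DNA methyltransferases, was at 2.24 CPM in O4AID and 606 and 600 CPM in CreER (-8.07 ± 0.086; edgeR adjusted p = 2.2e-33). Fgf5, the classic marker of the formative epiblast, had 0 reads in O4AID and 185 and 200 reads in CreER, at least 103-fold lower when set against a floor of 3 reads. Pou3f1 (Oct6), a POU factor of the primed epiblast, was at 0.685 against 24.3 and 22.0 CPM. Otx2, which directs enhancer use on exit from the naive state, was at 5.00 against 33.7 and 34.6 CPM. The Nodal targets Lefty1 and Lefty2 were at 1.92 and 2.08 CPM in O4AID, where CreER had between 30.2 and 61.1 CPM, yet Nodal itself, at 43.5 against 79.8 and 73.6 CPM, did not pass 2-fold. Foxd3, Zic2, Zic5 and Etv4 were not called, and T and Fgf8 were at most 0.662 CPM in any of the 3 libraries.

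Among DNA methylation enzymes, 2 of 11 were higher and 3 lower, close to the 19.7% and 26.1% over all autosomal genes tested. Over protein-coding genes alone the shares were 21.8% and 18.4%. The median of the enzymes, 0.104, changed sign under some alternatives given below. By member, the de novo and maintenance arms were unlike. Dnmt3a was at 59.9 against 212 and 230.0 CPM, and Dnmt3b at 101 against 591 and 587 CPM (-2.55 ± 0.054). Together with Dnmt3l, all members of the de novo arm were thus lower in O4AID by more than 2-fold. Dnmt1, the maintenance enzyme, was at 578 against 442 and 430.3 CPM and its partner Uhrf1 at 647 against 411 and 428 CPM, and neither was called. Of the TET oxidases, Tet2 was higher, Tet1 was at 573 against 893 and 877 CPM without a call, and Tet3 was at 20.5 against 18.9 and 19.198 CPM. Tdg, which excises oxidised methylcytosine, was higher at 45.6 against 20.005 and 23.7 CPM, and its log2 difference of 1.06 became -0.12 with its 3 copies added and 0.93 without CreER replicate 1. DNA methylation was not measured in these libraries.

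Although the labels list the MEK inhibitor for both lines, genes of the FGF-ERK response differed. Of 17 pathway genes tested, 9 were lower and 0 higher in O4AID, with a median of -1.47. Spry4, a feedback inhibitor of receptor signalling, was at 1.96 CPM in O4AID and at 199 and 190.4 CPM in CreER (-6.63 ± 0.092; edgeR adjusted p = 7.1e-31). The ERK phosphatase Dusp6 was at 7.92 against 131 and 133 CPM, and Dusp4 at 1.83 against 65.5 and 63.0 CPM. Egr1, an immediate early gene, was at 0.183 against 6.84 and 6.27 CPM. The CreER level of each of these 4 lay far above that of O4AID, with the replicates close to each other. Other ERK-responsive genes did not follow: Etv4 was at 59.7 against 64.4 and 59.3 CPM (-0.05 ± 0.078), Spry2 at 61.0 against 90.3 and 91.1 CPM, and Etv5 was higher without reaching 2-fold, at 600.1 against 355 and 342 CPM. The ligand Fgf4 was at 245 against 134 and 132 CPM and was not called, and of its receptors Fgfr1 was at 76.1 against 136 and 128 CPM and Fgfr2, which was called, at 6.82 against 35.3 and 36.0 CPM. Whether the culture of the sequenced cells, 2i/LIF or serum and LIF, differed between the lines was not tested.

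Wnt target genes, which answer to GSK3 inhibition, were higher for 7 of 18 tested and lower for 2, with a median of 0.56. Cdx1, a homeobox gene under direct TCF control, was at 108 CPM in O4AID and at 1.11 and 1.31 CPM in CreER (6.46 ± 0.11). Sp5, a zinc finger factor of the same kind, was at 12.96 against 0.756 and 0.603 CPM. Apcdd1, a membrane inhibitor of Wnt, was at 50.6 against 5.01 and 4.82 CPM, and Axin2, the general feedback target, at 42.0 against 13.8 and 11.3 CPM. Tnfrsf19 was also higher, at 33.4 against 13.045 and 15.2 CPM. Nkd1 and Rnf43 passed 2-fold at levels under 4 CPM, and total-count scaling ended both calls (0.82 and 0.97), as leaving out CreER replicate 2 did for Nkd1 (0.66). With copies added to parents across the table, 6 of 18 were higher, although no member of this list had a matched copy. The members lower in O4AID were Lef1, a TCF/LEF factor and formative gene, at 1.26 against 26.1 and 25.0 CPM, and the cell cycle gene Ccnd1, at 41.2 against 181 and 170.4 CPM. Notum, another feedback target, was level at 16.2 against 16.0 and 15.5 CPM, and Ctnnb1, which encodes β-catenin, was at 1100.1 against 860.1 and 865 CPM.

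Genes of the LIF-STAT3 pathway differed less. Of 13 tested, 3 were higher and 1 lower, and the median was 0.52. The members higher in O4AID were Tfcp2l1 and Klf4, given above, and the kinase Jak1, at 141 against 65.2 and 64.9 CPM, whose call total-count scaling ended (0.93). Stat3 was at 115 against 81.6 and 76.6 CPM and its direct target Socs3 at 95.7 against 68.5 and 65.1 CPM. Neither passed 2-fold. Junb, an immediate early gene that serum and FGF also switch on, was lower at 7.46 against 33.6 and 31.6 CPM.

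**Figure D3:**
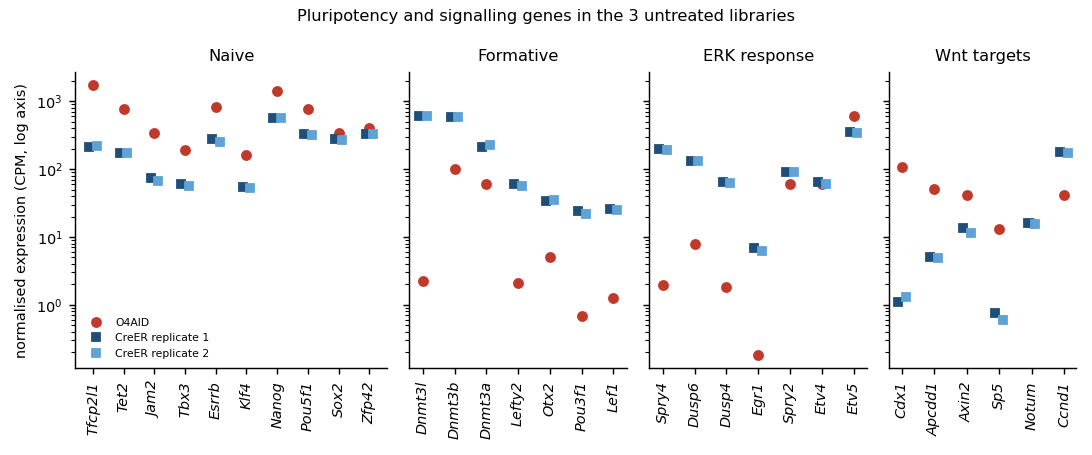
Normalised expression (CPM, log axis) of naive, formative, ERK-response and Wnt target genes in the O4AID library (circles) and CreER replicates 1 and 2 (squares). Formative genes and most ERK-response genes lie lower in O4AID, such as Spry4 at 1.96 against 199 and 190.4 CPM, whereas Tfcp2l1 and Cdx1 lie higher and Etv4, Notum and Sox2 are close between the lines.

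Trophectoderm genes were lower in O4AID for 11 of 18 tested and higher for 3, with a median of -2.23. Peg10, a retrotransposon-derived imprinted gene needed for the placenta, was at 55.1 CPM in O4AID and at 1917 and 1846 CPM in CreER (-5.09 ± 0.070). The simple epithelial keratins Krt8 and Krt18 were at 9.58 and 6.02 CPM in O4AID, where CreER had 96.8 and 90.4 CPM of Krt8 and 142 and 143 CPM of Krt18. Krt19 was at 0.137 against 13.4 and 15.9 CPM, and the trophoblast factor Hand1 at 0.319 against 10.5 and 8.07 CPM. Tead4, a Hippo pathway factor of the early trophectoderm, and Elf3, an ETS factor of epithelia, went the other way, at 52.7 against 11.1 and 10.4 CPM and at 131 against 38.7 and 33.0 CPM. Of the defining markers, Cdx2 was at 0.958 against 2.78 and 2.65 CPM, Gata3 at 1.26 against 2.23 and 2.31 CPM, Eomes at 8.24 against 14.2 and 11.2 CPM and Elf5 at most 0.436 CPM in any library. Over the whole list the summed level was 362 CPM in O4AID and 2343 and 2254 CPM in CreER, most of which was Peg10 in CreER.

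Of 14 primitive endoderm genes tested, 2 were higher and 4 lower, with a median of -0.76. That is close to the shares over all autosomal genes tested, while 18.4% of protein-coding genes alone were lower. Gata6, an early factor of this lineage, was at 4.86 against 0.875 and 0.704 CPM. The laminin gene Lama1 was at 261 against 74.5 and 74.1 CPM, while Sox17 and Pdgfra were under 1.6 CPM in all 3 libraries. Of the 7 feeder fibroblast markers, Lum and Dcn had at most 0.101 CPM in any library and 3 members had 0 reads in O4AID. Their summed level was 5.09 CPM in O4AID and 8.91 and 8.38 CPM in CreER, and 4 of 5 tested were lower in O4AID, including Col3a1 with 1 read against 46 and 65. A part of other cell types in the differences was not tested beyond these levels.

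Genes of epithelial contacts were lower in O4AID. In the list of tight junction and epithelial genes 10 of 17 were lower and 3 higher, with a median of -1.26. E-cadherin (Cdh1) was at 299.7 against 724 and 716 CPM (-1.26 ± 0.051). P-cadherin (Cdh3) was at 3.45 against 132 and 131 CPM, and N-cadherin (Cdh2) at 0.388 against 15.8 and 14.3 CPM. Epcam, a homophilic adhesion molecule, was at 22.4 against 217 and 208 CPM, and the junction proteins Cldn6 and Cgn were at 6.89 against 101 and 91.3 CPM and at 4.95 against 73.9 and 80.9 CPM. Cldn3, Aqp3 and Atp1b1 were the members higher in O4AID, the last of them, a sodium pump subunit, at 157 against 29.1 and 29.1 CPM. Tjp1 (ZO-1) was at 246 against 374 and 353 CPM, without a call. In the matrix the basement membrane gene Nid1 was higher, at 827 against 81.3 and 76.9 CPM (3.39 ± 0.051), with Fn1 at 767 against 306 and 288 CPM. Integrin β1 (Itgb1) was lower at 211 against 529 and 535 CPM, and over the matrix and adhesion list 7 of 28 were higher and 11 lower.

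Imprinted genes, of which only 1 parental allele is normally active, were lower for 23 of 41 tested and higher for 6, with a median of -1.21. H19 was at 2.42 CPM in O4AID and at 194 and 173 CPM in CreER (-6.24 ± 0.10), and its neighbour Igf2, a growth factor expressed from the other allele, at 0.434 against 35.3 and 34.5 CPM. In the Dlk1 region, the maternally expressed noncoding RNAs Meg3 and Rian were at 21.02 against 71.4 and 81.8 CPM and at 101 against 368 and 391 CPM, and Dlk1 itself had 0 reads against 65 and 90, at least 40.9-fold lower. The paternally expressed Peg3 was at 69.5 against 523 and 527 CPM, Mest at 54.2 against 310.2 and 285 CPM, and Snrpn at 16.9 against 160 and 189 CPM. Genes normally expressed from either parent's allele were thus among the lower ones. The members higher in O4AID included Plagl1, a zinc finger factor, at 221 against 17.7 and 14.1 CPM (3.81 ± 0.079), Igf2r at 395 against 145 and 155 CPM, and Grb10 at 129 against 32.7 and 33.3 CPM. Counts do not separate the alleles, and antisense pairs such as Igf2r with Airn cannot be told apart where the strand setting of featureCounts is not given.

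Germline genes whose promoters are normally methylated in somatic cells were higher for 11 of 23 tested and lower for 4, with a median of 0.93. With a minimum of 10 counts in every library, which leaves out genes near 0 in either line, 20 members were tested and the median was 0.11. Tuba3a, a testis tubulin, was at 335 CPM in O4AID and at 5.65 and 4.93 CPM in CreER (5.99 ± 0.076; edgeR adjusted p = 9.1e-32). Its near-identical paralogue Tuba3b was at 62.4 against 0.119 and 0.469 CPM, and reads may be split between them. Dazl, an RNA-binding protein needed for germ cells, was at 129 against 9.07 and 8.34 CPM (3.89 ± 0.080). The bromodomain gene Brdt was at 39.3 against 1.27 and 1.84 CPM, and Sohlh2, a germ cell transcription factor, at 91.6 against 8.55 and 7.54 CPM. By contrast Ddx4 (Vasa) was lower at 7.03 against 29.4 and 28.3 CPM, as were Tdrd1 of the piRNA pathway, the synaptonemal complex gene Sycp1 and D1Pas1. Mael, Stk31 and Tex19.1 were not called. With copies added to parents, 22 members were tested, and 11 were higher and 3 lower. A member that is itself a matched copy joins its parent there and is no longer tested.

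The promoters of Tuba3a and Dazl are shown because both genes were over 10-fold higher in O4AID and because methylation acts on their CpG dinucleotides. The 250 bases before each RefSeq start site (GRCm38.p6) are printed 5′ to 3′ on the gene's strand, the minus strand for both, at chr6:125286082-125286331 and chr17:50293621-50293870, with every CpG in capitals.
Tuba3a: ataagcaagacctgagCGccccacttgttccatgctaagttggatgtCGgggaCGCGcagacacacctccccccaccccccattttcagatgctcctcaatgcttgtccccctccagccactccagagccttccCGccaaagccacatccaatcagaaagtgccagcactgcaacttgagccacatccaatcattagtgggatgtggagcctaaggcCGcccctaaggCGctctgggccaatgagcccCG
Dazl: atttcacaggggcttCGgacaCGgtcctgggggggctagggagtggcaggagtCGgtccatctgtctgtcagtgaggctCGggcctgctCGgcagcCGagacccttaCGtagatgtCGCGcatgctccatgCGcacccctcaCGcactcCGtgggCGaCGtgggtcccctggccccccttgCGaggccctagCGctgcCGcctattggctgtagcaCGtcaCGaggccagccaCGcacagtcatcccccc
CpG reads the same on both strands, and overlapping matches are not possible. The Tuba3a window holds 8 and the Dazl window 20, and 43.4% and 17.7% of all 27025 promoter windows hold at least as many. The median over all windows was 6. Over the 11 germline genes higher in O4AID it was 14, with a range of 2 to 20, and over the 4 lower ones it was also 14, with a range of 11 to 31, so CpG number did not separate the directions. In the 2-cell genes below, 9 of 16 lower members had a window and their median was 1.

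Genes of the 2-cell-like state, which a small part of ESCs enters at a time, were lower for 16 of 21 tested and higher for 0, with a median of -1.66. With copies added to parents, 19 members were tested, and 14 were lower and 0 higher. Zscan4d, of the cluster that defines this state, was at 11.9 against 37.7 and 37.6 CPM, and Zscan4c at 28.3 against 47.6 and 45.7 CPM, the latter without a call. Duxf3, a copy of the master factor Dux, was at 0.160 against 2.35 and 2.35 CPM. The Usp17l ubiquitin proteases were lower for all 5 members tested. Members of these families are near-identical, so reads may be split between them.

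Hox genes, which pattern the body axis and are normally silenced by Polycomb in ESCs, were higher for 17 of 20 tested and lower for 1, with a median of 4.75. Only 5 members had at least 10 counts in every library, and their median was 2.22. Their levels were low in both lines, with a summed level of 104 CPM in O4AID and of 11.1 and 11.2 CPM in CreER. Hoxa10 was at 19.145 CPM in O4AID and at 0.358 and 0.201 CPM in CreER (6.11 ± 0.22), and Hoxb13 at 10.98 against 0.477 and 0.335 CPM. Hoxc4 had 365 reads in O4AID and 0 in both CreER replicates, at least 75.8-fold higher. Hoxc6 had 132 reads against 2 and 0, a ratio of 82.8 with a 95% counting interval of 22.5 to 691. Members of all 4 clusters were higher in O4AID, with Hoxd8 at 5.23 against 0.0795 and 0.134 CPM as an example from the Hoxd cluster. Hoxd1, with 2 reads against 11 and 10, was the 1 member lower, and Hoxd13, at 3.54 against 2.903 and 3.72 CPM, was level.

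Genes of amino acid supply and of the ATF4 response were higher for 11 of 26 tested and lower for 1, with a median of 0.96. Asns, which makes asparagine and is a classic ATF4 target, was at 969 CPM in O4AID and at 211 and 215 CPM in CreER (2.19 ± 0.048). Pycr1 of proline synthesis was at 109 against 12.965 and 12.5 CPM, Cth of transsulfuration at 166 against 21.2 and 23.8 CPM, and Pck2, the mitochondrial phosphoenolpyruvate carboxykinase, at 69.4 against 13.96 and 14.7 CPM. Phgdh, the first enzyme of serine synthesis, was at 213 against 27.4 and 25.3 CPM, and with its 17 copies added its log2 difference went from 3.01 to 1.10. Atf4 itself was at 316 against 180 and 173 CPM, short of 2-fold, and the stress genes Ddit3 and Atf3 were not called.

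Cholesterol synthesis genes were higher in O4AID for 15 of 21 tested and lower for 1, with a median of 1.26. Insig1, the sterol sensor that SREBP2 itself induces, was at 443 against 66.4 and 68.2 CPM (2.72 ± 0.048). The demethylase Cyp51 was at 375 against 92.9 and 89.8 CPM, the lanosterol synthase Lss at 178 against 56.99 and 58.3 CPM, and the regulator Srebf2 at 328 against 141 and 133 CPM. Fdps was level alone, at 6.46 against 5.33 and 6.20 CPM, but with its 3 copies added the log2 difference was -2.73.

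Energy metabolism gave no single direction. Of 23 glycolytic and glucose transport genes, 8 were higher and 4 lower. The glucose transporter Slc2a1 was lower at 194 against 617 and 549 CPM, while Slc2a3, at 2621 against 1619 and 1584 CPM, was not called. The hexokinase Hk1 was higher at 189 against 36.6 and 36.7 CPM, and Hk2, at 404 against 313 and 340 CPM, did not pass 2-fold. Pdk1, which holds back pyruvate oxidation, was lower at 50.4 against 240 and 242 CPM. Eno1 was higher at 1184 against 332 and 299.6 CPM, and Ldhb at 309 against 71.4 and 66.0 CPM. Of 33 nuclear respiratory chain subunits, 5 were higher and 0 lower, but with copies added 1 was higher and 0 lower. Cox5b of complex IV, for instance, was at 145 against 9.51 and 7.77 CPM, its 1 copy held 0 against 58.8 and 66.4 CPM, and the difference went from 4.08 to 0.97.

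The largest differences among named protein-coding genes were switches between presence and near absence. Cd3g and Cd3d, neighbouring genes for chains of the T cell receptor complex (chr9:44969572-44980431 and chr9:44981793-44987052), had 1656 and 947 reads in O4AID. CreER had 0 reads of Cd3g and 0 and 1 of Cd3d, so that Cd3g was at least 344-fold higher in O4AID. C1ql2, a secreted C1q-like protein of synapses, had 2212 reads against 1 and 1, a ratio of 1390 with a 95% counting interval of 384 to 11500. The sodium-proton exchanger Slc9a2 had 717 reads against 0 and 0, at least 149-fold higher, and the interferon-inducible Ifi27 had 503 against 0 and 0, at least 104-fold higher. Sdr9c7, a short-chain dehydrogenase, and Il10, a cytokine, were at 5.70 and 3.88 CPM in O4AID with 0 reads in CreER. Trpm1, a cation channel of retina and melanocytes, was at 66.5 against 0.159 and 0.0670 CPM. Crxos was at 173 against 0.358 and 0.469 CPM, though with its 6 copies added the log2 difference went from 8.68 to 5.38. Serglycin (Srgn), the sodium channel subunit Scn2b, the LIF-family cytokine Osm and the nuclear body protein Sp100 also had at most 3 reads in each CreER library and at least 375 in O4AID.

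In the other direction, 4 of the 10 largest differences were matched intronless copies, namely Rbm8a2, Psme2b, Rps27rt and Acot10. Anapc15-ps, which bears a pseudogene name but was annotated as protein-coding and had no matched parent, had 0 reads against 215 and 266, at least 128-fold lower. Psme2b had 0 reads in O4AID and 514 and 707 in CreER, and its parent Psme2, a proteasome activator subunit, went from a log2 difference of 4.88 alone to 0.75 with its copies. Genes without a matched copy were also among them. Esrp1, a splicing regulator of epithelial cells (chr4:11331933-11386783), had 2 reads in O4AID and 2254 and 2708 in CreER, a ratio of 1980 with a 95% counting interval of 547 to 16300. Olig1, a factor of the oligodendrocyte lineage, had 0 reads against 311 and 347, at least 175-fold lower. Tmem54 had 0 against 255 and 286, and the prolactin receptor Prlr 0 against 139 and 200, at least 144-fold and 89.3-fold lower. By the rule for symbols, 83 autosomal genes had at most 3 reads in each CreER library with at least 50 in O4AID, and 171 were near 0 in O4AID only. Of the 10 most expressed of the latter, 9 were processed pseudogenes. The counts of 83 and 171 genes use the same read limits at unlike depths. A limit of 3 reads is 0.0685 CPM in O4AID and 0.119 and 0.101 CPM in CreER replicates 1 and 2.

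Chromosomes 8 and 14 stood apart in their median. Over 768 genes with a mean of at least 50 counts, chromosome 8 had a median log2 difference of -0.43, which is -0.59 against the median of 0.162 over all such autosomal genes, or 0.662 times its level. Chromosome 14, over 479 genes, had a median of -0.28, which is -0.44 against all genes, or 0.737 times. The other 17 autosomes ranged from -0.06 to 0.17 against all genes, and the CreER replicates differed from each other by -0.029 to 0.014 over the autosomes. Along chromosome 8 4 equal bins of its genes by position had medians between -0.50 and -0.31, whereas along chromosome 14 they were 0.18, -0.37, -0.70 and -0.19. Cdh1, Cdh3, Dusp4, Junb and Itgb1, all lower in O4AID, lie on chromosome 8. A call of 2-fold is measured on the scale of all genes and not against a chromosome's median. A gene on chromosome 8 therefore passes the limit for lower with a smaller difference from the median of its chromosome. Gene copy number was not measured here.

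**Figure D4:**
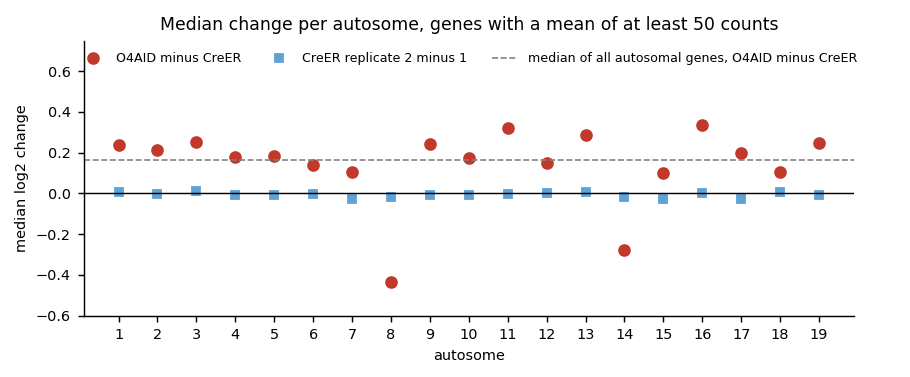
Median log2 difference of each autosome over genes with a mean of at least 50 counts, for O4AID minus the CreER mean (circles) and for CreER replicate 2 minus replicate 1 (squares), with a dashed line at the median of all autosomal genes. Chromosomes 8 and 14 lie below 0 at -0.43 and -0.28, and the replicate differences lie within 0.029 of 0.

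The later libraries of each line, taken after IAA or 4-OHT, were set beside the untreated ones to see which line differences held across both time courses. They are treated and are not replicates of the untreated state. The labels list PD03 and Chiron for them too. For its qRT-PCR and western blot of Oct4 Fl/- ESCs, the study states a change to serum and LIF medium along with 4-OHT. Whether the medium of the sequenced CreER cells changed with 4-OHT was not tested. All 5 O4AID libraries lay above all 10 CreER libraries for 5937 of the tested autosomal genes, 30.4%, and below all of them for 6123, 31.4%. Of the genes called higher at 0 h, 3413 of 3844 were above in this way, and of those called lower, 4345 of 5104 were below. The 0 h libraries are among those compared, and all 10 CreER libraries entered the fit behind the calls. High shares among called genes were thus partly built in. Dnmt3l stayed between 1.52 and 2.59 CPM in O4AID and between 401 and 599 CPM in CreER, and Tuba3a between 209 and 328 CPM in O4AID and between 4.70 and 5.95 CPM in CreER. Tfcp2l1, which had the largest difference of the naive genes higher in O4AID, ranged from 527 to 1674 CPM in O4AID and from 207 to 340 CPM in CreER, so that the lines never overlapped. For Nanog the ranges of 402 to 1367 CPM in O4AID and 555 to 653 CPM in CreER did overlap, as they did for Esrrb, Klf4, Tbx3 and Jam2. In the formative list 14 of 20 members were below in all O4AID libraries, and in the naive list 3 of 21 were above and 5 below. Scaling over 15 libraries makes these values differ slightly from those above.

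**Figure D5:**
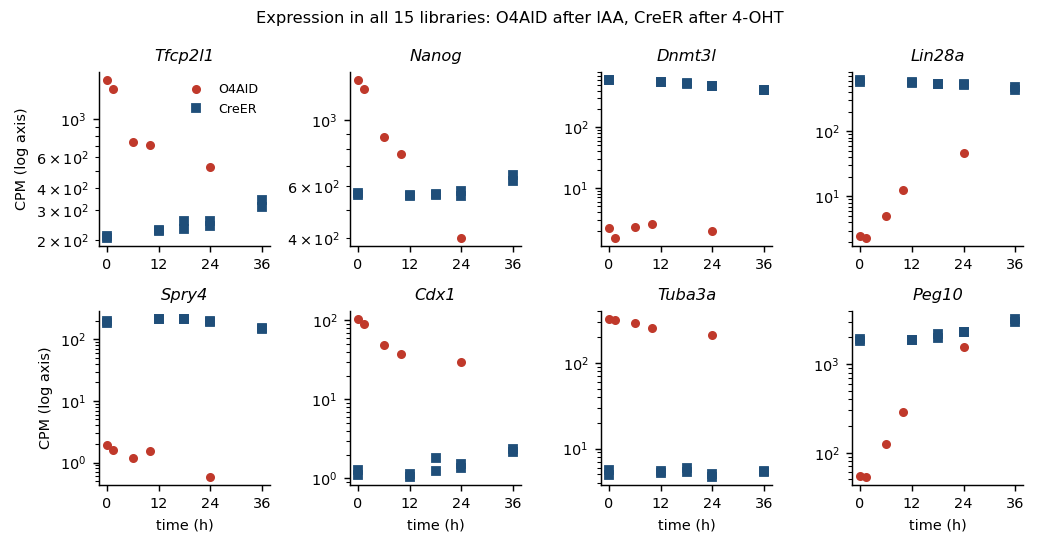
Expression (CPM, log axis) of selected genes against hours in all 15 libraries, O4AID after IAA (circles) and CreER after 4-OHT (squares, 2 replicates a time). Tfcp2l1, Dnmt3l, Lin28a, Spry4, Cdx1, Tuba3a and Peg10 keep the lines apart at all times, although Peg10 in O4AID goes from 54.0 CPM at 0 h to 1566 CPM at 24 h, where CreER has 2279 and 2294 CPM, and the O4AID values of Tfcp2l1, Lin28a and Cdx1 also lie nearer to CreER at 24 h than at 0 h, and for Nanog the O4AID value at 24 h, 402 CPM, lies below the CreER values.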

How the data were processed

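RNA was measured in cultured mouse ESC lines, in 1 untreated O4AID library and 2 untreated CreER libraries, after ribosomal RNA depletion and directional library preparation. The authors aligned reads to GRCm38 (mm10) with TopHat2 2.1.0 after Trim Galore 0.1.4 and counted them per Ensembl gene with featureCounts 1.5.1, so the deposited values are raw counts, 1 file a library. TopHat2 was run with its default settings, per the study's methods, and the featureCounts settings for strand and for reads with several matches are not given in the sources used here.

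From the counts, edgeR 4.0.16 (R 4.3.3) was run with TMM scaling, filterByExpr and the robust quasi-likelihood test on the O4AID 0 h library and the 10 CreER libraries at 5 times, 11 in all. The contrast was O4AID minus CreER at 0 h. Benjamini-Hochberg adjustment was over 20373 genes tested, of which 19520 are autosomal. The study merged its replicates and used NOISeq-sim, which was rebuilt here as an alternative (probability above 0.9) beside DESeq2 1.42.0. Log2 differences carry a prior count of 0.125, and SE is the size of the log2 difference over the root of the F statistic. The edgeR and NOISeq-sim steps were tested on simulated data. Whether the CreER replicates came from separate cultures is not labelled, so p-values measure the spread between these libraries, which may be technical.

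Named genes were Pou5f1, the members of 25 lists with 526 entries, the 10 called protein-coding genes with the largest log2 difference each way (a symbol that is no Gm or Rik name, a mean of at least 50 counts), and by the same symbol rule up to 10 genes each way with at most 3 reads in each library of the other line. Members and lists were chosen with earlier results of these data known. Genes at 0 were set against a floor of 3 reads per library. Counting intervals are 95% and, like the floor, cover counting error only, since reads carried no molecular identifiers. Processed pseudogenes and intronless genes, 8503 in all, were matched to spliced genes with blastn 2.17.0 at 85% identity or more over at least 50% of the copy and 100 bases, which gave 5003 copies of 1792 parents. Biotypes and coding sequences came from GENCODE M21 on GRCm38. Promoters came from RefSeq. Alternatives were other scalings and filters, each CreER replicate left out, O4AID thinned to 26831716 reads, O4AID at 1.5 h in place of 0 h, and, chosen after seeing the data, processed copies added to parents or left out with them. Sex-linked and mitochondrial genes were not described. Some genes of the lists are not reported here.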

Additional observations from a re-analysis of the deposited data

How the results depend on the processing

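Of 19520 autosomal genes, 8948 were called. The count was 5411 (2831 lower) with a minimum of 10 counts in every library, 3957 (2190 higher, 1767 lower) by NOISeq-sim and 15276 (7597 higher, 7679 lower) by adjusted p without a fold limit. Fewer genes, 14794, passed the stricter minimum, and without a fold limit smaller differences count. For NOISeq-sim the cause was not tested. DESeq2 called 8135, size factors by relative log expression 8966, no filter 9946 and the 3 untreated libraries alone 8656. Without 1 CreER replicate the calls ranged from 8522 to 8947, the higher ones from 3761 to 3817 and the lower ones from 4761 to 5130. Relative to all autosomes, chromosome 8 was at -0.59 and moved to -0.58 with O4AID at 1.5 h, and chromosome 14 was at -0.44 and moved to -0.48 with copies added or left out and to -0.34 over genes that passed filterByExpr.

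Medians near 0 changed sign, and the cause was not tested. For DNA methylation enzymes (0.104) the median was -0.085 with total counts, -0.077 with O4AID at 1.5 h, -0.123 with copies added and -0.289 without copies and parents. For p53 targets (-0.102) it was 0.203 at 1.5 h and 0.014 without copies and parents, and for aryl hydrocarbon receptor genes (-0.090) it was 0.835 at 1.5 h. For major histocompatibility and interferon genes (-0.017) it was 0.006 with relative log expression, 0.065 at 1.5 h, and from -0.015 to 0.109 when 1 CreER replicate was left out, with the change of sign without replicate 2. Among genes called under the main or the alternative setting, those that changed sign were Tdg (-0.123) and Fdps (-2.73) with copies added and Cyp1a1 (2.18) at 1.5 h, the first sample after IAA. NOISeq-sim ended the calls of 60 named genes, and adding copies those of 23. Without processed copies and their parents the median of trophectoderm genes moved from -2.23 to -1.52, over 15 of 18 members. No paired analysis was possible because the O4AID library carries no replicate number.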

Other observations

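Of 19 p53 target genes, 2 were higher and 3 lower in O4AID, where 19.7% of all autosomal genes tested were higher and 26.1% lower, with a median log2 difference of -0.10. Cdkn1a, the p21 cell cycle inhibitor, was at 204 CPM in O4AID and at 22.9 and 23.9 CPM in CreER (3.12 ± 0.076). Its neighbour Trp53cor1 was at 5.02 against 0.477 and 0.704 CPM. Perp, a desmosomal p53 target, was at 9.15 against 53.9 and 53.9 CPM, and Pmaip1 (Noxa) at 14.3 against 52.1 and 58.5 CPM. Mdm2, Bax and Trp53 itself were not called. Of 8 aryl hydrocarbon receptor genes, 3 were higher and 3 lower, against the same 19.7% and 26.1%. Cyp1b1, a xenobiotic-metabolising oxidase, was at 0.525 against 10.5 and 9.45 CPM, and Cyp1a1 of the same kind at 0.753 against 2.903 and 2.18 CPM, while Nqo1, a quinone reductase, was at 121 against 46.1 and 47.9 CPM.

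Major histocompatibility and interferon-induced genes were higher for 6 of 22 tested and lower for 2, against 19.7% and 26.1% of all autosomal genes tested. Their median log2 difference was -0.017. B2m, the light chain of class I molecules, was at 31.8 against 9.15 and 7.77 CPM, and Ifitm3 at 65.1 against 20.2 and 16.6 CPM. Stat2 and Oas1a were higher as well, with Oas1a at 25.1 against 4.41 and 3.22 CPM. The class I heavy chain genes H2-K1 and H2-D1 were not called, and Isg15 had 1 read in O4AID against 18 and 16.

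Of the genes with alleles known to differ between 129 and C57BL/6 mice, Nnt, which lacks exons in C57BL/6J, was at 25.1 CPM in O4AID and at 44.9 and 50.2 CPM in CreER, without a call. Casp4 had at most 0.0670 CPM in any of the 3 libraries. Small RNA genes were lower for 269 of 443 tested and higher for 20, though they took 0.3% of counts in O4AID and 0.3% and 0.38% in CreER. Long noncoding genes were lower for 575 of 1737 (33.1%) and higher for 313 (18.0%). Over all autosomal genes tested, 26.1% were lower and 19.7% higher.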
